A study of Mus musculus with 10 samples.

Results

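Foxl1 positive and Foxl1 negative cells, both sorted from the mesenchyme of mouse intestine, were compared by RNA sequencing. The comparison used 6 libraries, 3 of each sort, of the 10 in the series, and the other 4 held intestinal epithelium. Libraries were assigned to a sort by their sample titles. Of 18594 genes measured, each read from the transcript that the authors had marked as its representative, 16746 had a count in at least 1 of the 6 libraries and 11204 passed the filter on low counts and were tested. The study concerned telocytes of the intestine as a source of Wnt signals. All 6 libraries came from mice of mixed strain that carried Foxl1Cre, a Cre recombinase driven by Foxl1, together with a reporter of Cre activity. Rosa-YFP served in Foxl1 positive replicates 1 and 2, whereas Foxl1 positive replicate 3 and all 3 Foxl1 negative libraries used Rosa-mTmG. A Cre reporter stays on in the descendants of a cell, so Foxl1 positive here means present or past expression of Foxl1. The tissue was taken apart with dispase and trypsin before the sort, and RNA was purified from lysed cells. The labels name no animal, age or sex for these samples, so the spread behind each p-value is that of libraries and may in part be technical. All Foxl1 negative libraries carry the name of 1 sequencing run and each Foxl1 positive library that of a run of its own, so run and sort cannot be told apart.

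Telocytes are mesenchymal cells with long thin processes that lie directly beneath the epithelium along crypts and villi. They carry the platelet-derived growth factor receptor Pdgfra and the transcription factor Foxl1, and in the intestine they are known for secreting Wnt ligands, which sustain crypt stem cells, and BMP ligands, which restrain proliferation toward the villus. Hedgehog proteins run in the other direction, made by the epithelium and received by mesenchyme. There Ptch1 is the receptor and restrains the transducer Smo, and the Gli factors carry the signal to target genes.

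The markers of the sort separated the libraries only in part, because Foxl1 itself was scarce in 1 Foxl1 positive library. Levels are CPM, counts relative to the library total, scaled by trimmed mean of M values over the 6 libraries. Foxl1 (chromosome 8, 123651585 to 123654544, mm9) was at 0.265, 52.6 and 18.2 CPM in Foxl1 positive replicates 1, 2 and 3, and had no count in any Foxl1 negative library. It was too low to be tested, and the 2 counts in Foxl1 positive replicate 1 lie under the 3 counts (0.397 CPM) taken as that library's floor. Foxl1 thus does not mark that library, which counts as Foxl1 positive by its title. Wnt5a, a ligand of mostly noncanonical Wnt signalling (chromosome 14, 29318659 to 29338701), was at 51.1, 90.5 and 155 CPM against no count. Bmp5, a ligand of the bone morphogenetic protein family (chromosome 9, 75623172 to 75746824), was at 327, 423 and 473 CPM against no count. Gli1, the hedgehog-induced member of the Gli factors (chromosome 10, 126766938 to 126778635), was at 40.5, 84.95 and 60.2 CPM against no count. For these 3 genes every Foxl1 positive library lay above every Foxl1 negative one, and each was called higher by edgeR's quasi-likelihood test (adjusted p = 0.0133 for Wnt5a, 0.0131 for Bmp5 and 0.0116 for Gli1).

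**Figure D1:**
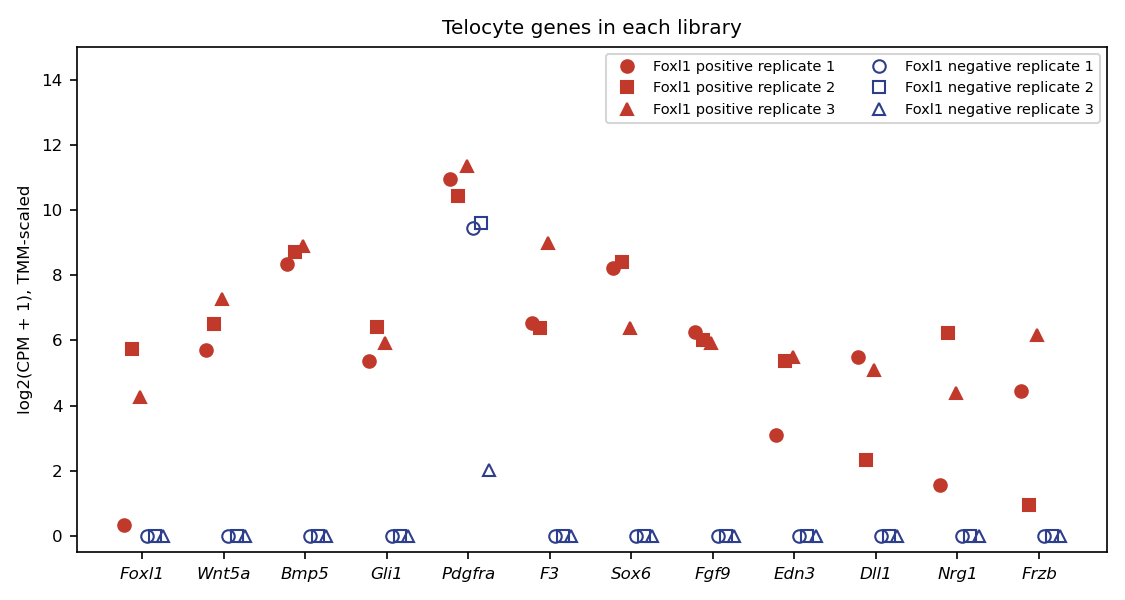
Level of 12 telocyte genes, as log2(CPM + 1), in each Foxl1 positive (filled) and Foxl1 negative (open) library. Foxl1 was near 0 in Foxl1 positive replicate 1, and Pdgfra was the only gene shown that was counted in Foxl1 negative libraries.

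The Foxl1 negative libraries held counts for far fewer genes, also at equal depth, and this bears on every comparison here. Total counts were 11167676, 7095728 and 4368332 in the Foxl1 positive and 1311205, 6319671 and 13440838 in the Foxl1 negative libraries. Genes with a count numbered 14332, 14817 and 14343 against 1992, 4097 and 5966. Drawn down to the 1311205 counts of the shallowest library, the expected numbers were 13095, 13854 and 13656 against 1992, 3483 and 5314. Of the genes counted in any Foxl1 positive library 75.4% were counted in all 3. In the Foxl1 negative libraries this share was 9.2%, and 61.6% of genes were counted in 1 library only. Spearman correlations across genes were 0.727 to 0.858 within the Foxl1 positive and 0.213 to 0.346 within the Foxl1 negative sort.

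Zeros in the Foxl1 negative libraries were more frequent among long transcripts. Among genes at 50 CPM or more by library total in every Foxl1 positive library, those of under 1000 bases (n = 44) had no count in 31.8%, 2.3% and 0.0% of cases in Foxl1 negative replicates 1, 2 and 3. Among those of over 5000 bases (n = 763) the shares were 83.7%, 61.1% and 45.1%. Genes chosen without the 6 libraries showed the same order. Of genes at 50 CPM or more in all 4 epithelial libraries, 42.5%, 11.2% and 6.7% were at 0 among the shortest (n = 134) and 79.7%, 53.0% and 41.2% among the longest (n = 296). The mean transcript length, weighted by counts, was 4824, 4898 and 3926 bases in the Foxl1 positive and 2328, 2793 and 2988 bases in the Foxl1 negative libraries. The share of tested genes called higher in Foxl1 positive cells was 17.3% under 1000 bases and 52.5% over 5000 bases. With an offset in the fit for each library's trend over length, chosen after seeing the data, 4696 genes were called higher. An offset leaves a count of 0 at 0, so this number does not show whether length bears on the calls of uncounted genes.

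**Figure D2:**
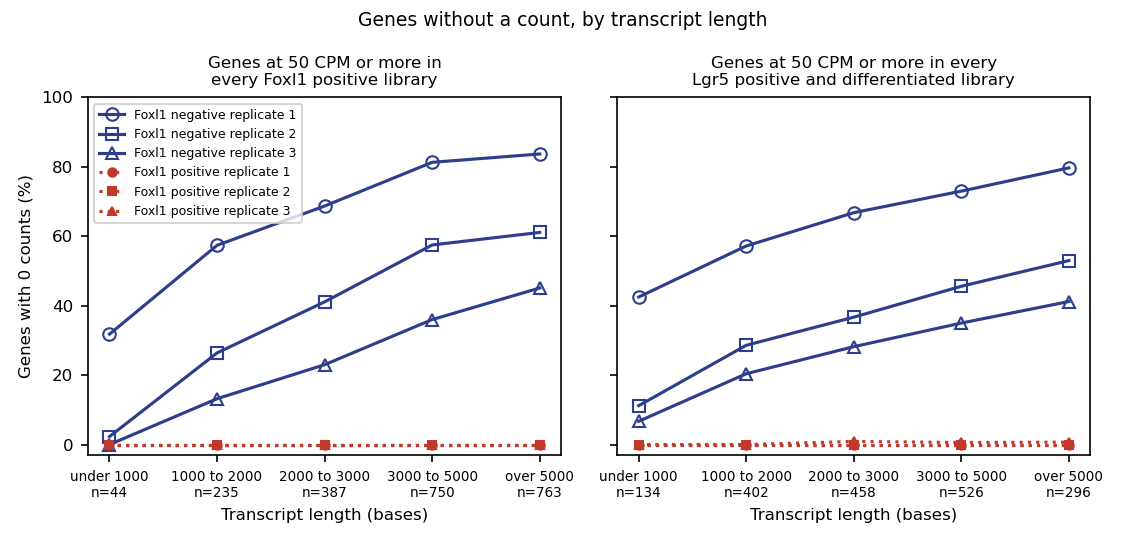
Percentage of genes with 0 counts in each library by transcript length in bases, for genes well expressed in every Foxl1 positive library (left) and in every epithelial library (right). In all 3 Foxl1 negative libraries (open, blue) the share rises with length, while Foxl1 positive libraries (filled, red) stay at or near 0.

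Of the 11204 genes tested, 4723 (42.2%) were called higher in Foxl1 positive cells by edgeR at an adjusted p under 0.05, and 0 (0.0%) were called lower. At an unadjusted p under 0.05, 7 genes were lower. DESeq2 called 5215 higher and 88 lower, limma-voom 5768 and 1, and limma on log2(FPKM + 1) 3976 and 18. In 5924 genes (52.9%) every Foxl1 positive library lay above every Foxl1 negative one, and in 65 (0.58%) the reverse held. Without Foxl1 negative replicate 3, the deepest of its sort, edgeR called 8207 genes higher and 33 lower. Calls followed detection closely. All 4028 tested genes without a count in the Foxl1 negative libraries were called higher, as were 618 of 4152 counted in 1 of these libraries, 72 of 2278 counted in 2 and 5 of 746 counted in all 3. Of those 746 genes, 428 had a fitted change toward lower levels in Foxl1 positive cells. A gene without counts in the Foxl1 negative sort passed the filter through the Foxl1 positive libraries alone, so its call restates that it was not detected there. The same holds, or nearly so, where a fit leaves out the only Foxl1 negative library in which a gene had more than 1 count. For the same reason the counts over tested members of a list, given below beside the 42.2% of all genes tested, are descriptions and not evidence for the list. Folds against a sort with no counts use the mean of its 3 floors of 3 counts each, 0.767 CPM, and cover counting error only. In a bulk library, fewer cells of a type and less RNA per cell cannot be told apart.

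**Figure D3:**
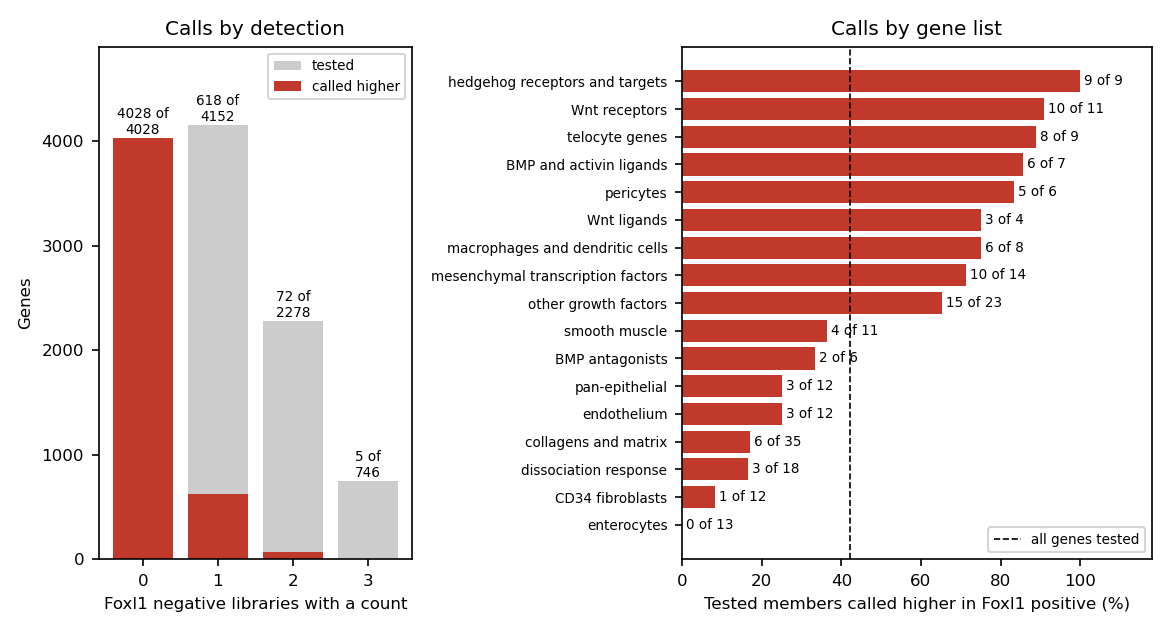
Left, tested genes (grey) and genes called higher in Foxl1 positive cells (red) by the number of Foxl1 negative libraries in which they were counted. Right, percentage of tested members of each gene list called higher, with the numbers; the dashed line marks the 42.2% of all genes tested.

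Of 13 telocyte genes measured, 9 were tested and 8 called higher, beside 42.2% of all genes tested. Foxl1, Nrg1, Frzb and Vstm2a were too low to be tested, and Vstm2a had no count in any of the 6 libraries. Bmp5 was at 408 ± 74.1 CPM (SD, n = 3) and at least 531-fold higher. F3, the tissue factor that starts blood coagulation, was at 91.4, 83.05 and 503 CPM and uncounted in the other sort, at least 294-fold higher (edgeR adjusted p = 0.0169). Foxl1 positive replicate 3 stood above the others for F3 and below them for Sox6, a transcription factor of the Sox family. Sox6 was at 298, 341 and 82.05 CPM, with none counted in the other sort (at least 313-fold, adjusted p = 0.0149). Fgf9, a fibroblast growth factor, was the most even of the list at 75.1, 64.2 and 59.2 CPM, 66.2 ± 8.13 in the mean (SD, n = 3) and at least 86.2-fold higher (adjusted p = 0.0116). Edn3, a ligand of endothelin receptors, was at 7.55, 40.8 and 44 CPM, and Dll1, a ligand of Notch receptors, at 44.4, 4.0 and 33.1 CPM, both against no count. Their means were at least 40.1-fold and 35.4-fold higher (adjusted p = 0.0116 and 0.0119). The epidermal growth factor family member Nrg1, at 1.99, 74.3 and 19.9 CPM, and the secreted Wnt antagonist Frzb, at 20.7, 0.952 and 71.5 CPM, had no count in the other sort and were not tested.

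Pdgfra was the exception among telocyte genes, counted in all 6 libraries. It was at 1992, 1383 and 2583 CPM in Foxl1 positive and at 704, 783 and 3.07 CPM in Foxl1 negative libraries. All 3 Foxl1 positive libraries lay above the others, but the log2 difference of 2.00 ± 1.87 (SE) did not pass (edgeR adjusted p = 0.558). In the 2 Foxl1 negative libraries where Pdgfra was high, no other telocyte gene of the list had a count. Per transcript length Pdgfra was at 28.7 and 35.6 FPKM there, beside 50.1, 34.7 and 107 FPKM in the Foxl1 positive libraries.

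Hedgehog receptors and targets were called higher in Foxl1 positive cells in 9 of 9 members tested, of 14 measured. This lay beside 42.2% of all genes tested. Of the 9, 8 had no count in the Foxl1 negative sort, so their calls restate that they were not detected there. Summed over the 14 genes, the level was 1426, 823 and 3471 CPM against 0, 0.128 and 0.114 CPM. Ptch1, the hedgehog receptor and itself a target, was at 354.5, 323 and 90.65 CPM, with none counted in the other sort (at least 334-fold, edgeR adjusted p = 0.0148). Smo, the transducer that Ptch1 restrains, was at 105, 57.9 and 267 CPM, with none counted in the other sort (at least 187-fold, adjusted p = 0.0151). Hhip, a membrane protein that binds hedgehog ligands and dampens the signal, varied most between replicates 2 and 3, at 536, 54.5 and 2356 CPM against no count, and was at least 1280-fold higher (adjusted p = 0.0152; 0.0614 without Foxl1 positive replicate 3). Gli2 and Gli3, the factors that set target transcription together with Gli1, were at 67.2 ± 27.2 and 42.3 ± 13.4 CPM (SD, n = 3), and Sufu, a negative regulator that holds Gli proteins in the cytoplasm, at 29.4 ± 13.1 CPM. These 3 genes had no count in the Foxl1 negative libraries. Foxf1a and Foxf2, forkhead factors of gut mesenchyme that respond to hedgehog, were at 46.0, 39.8 and 166 CPM and at 85.4, 44.8 and 106.5 CPM. Foxf1a had 1 count in Foxl1 negative replicate 2 and Foxf2 none (adjusted p = 0.01275 and 0.0121). The members left untested were uneven among Foxl1 positive libraries. The co-receptor Cdon, for example, was at 33.4, 102.5 and 0 CPM and the co-receptor Boc at 0.927, 9.33 and 99.6 CPM.

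Hedgehog ligands were scarce in Foxl1 positive libraries. Shh had no count in any of the 6, and Dhh was at 0, 0 and 0.331 CPM. Ihh, the ligand of the differentiated epithelium, was at 0.397, 7.62 and 1.32 CPM in Foxl1 positive libraries and at 0, 257 and 0.0569 CPM in the others. The high value was in Foxl1 negative replicate 2, in which some epithelial genes were also high, with the keratins Krt8 and Krt19 at 2853 and 2272 CPM. Others were not, with Vil1 at 42.0 and Cdh1 at 0 CPM. In Foxl1 positive replicates 1 and 2, where Ihh was low, Vil1 was at 656 and 973 CPM and Cdh1 at 1032 and 810 CPM. The part of epithelial RNA in the Ihh value was not tested.

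Among Wnt ligands, 3 of the 4 tested, of 17 measured, were called higher in Foxl1 positive cells, beside 42.2% of all genes tested. Per transcript length the means of the tested ligands in the Foxl1 positive libraries were in the order Wnt5a (4.99 FPKM), Wnt2b (4.25), Wnt4 (1.79) and Wnt9a (0.507), but the libraries of neighbours in this order overlapped. Wnt4, a ligand used in several developing organs, was highest in Foxl1 positive replicate 2, at 18.4, 90.9 and 9.60 CPM, with none counted in the other sort (at least 51.6-fold, edgeR adjusted p = 0.0126). Wnt9a, of the canonical class, was at 4.37, 7.81 and 11.25 CPM, with none counted in the other sort (at least 10.2-fold, adjusted p = 0.0116). The canonical ligand Wnt2b was at 143, 19.2 and 69.8 CPM against 0, 4.34 and 0 CPM. Its libraries did not overlap, but its log2 difference of 5.69 ± 2.67 (SE) did not pass (adjusted p = 0.152; 0.0216 without Foxl1 negative replicate 2). Wnt2, Wnt5b and Wnt9b were counted mainly in Foxl1 positive replicate 3, at 22.8, 20.5 and 7.28 CPM, while Wnt3 had counts in replicates 1 and 2 only, at 7.285 and 2.48 CPM. Wnt11, a noncanonical ligand, went the other way in 1 library, with 0.583, 348 and 0 CPM in Foxl1 negative and 0, 0 and 0.9925 CPM in Foxl1 positive libraries. The summed level of the 17 ligands was 228, 212 and 299 CPM in Foxl1 positive against 0.583, 353 and 0 CPM in Foxl1 negative libraries.

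Wnt receptors were called higher in 10 of 11 members tested, of 16 measured, beside 42.2% of all genes tested. Lrp6, a coreceptor of canonical Wnt signalling, was at 413.5, 329 and 181 CPM against 1 count in Foxl1 negative replicate 2 (edgeR adjusted p = 0.0126, and 0.0540 and 0.0519 without Foxl1 positive replicate 1 or 2). The frizzled receptor Fzd1 was at 165, 34.7 and 370 CPM, with none counted in the other sort (at least 247-fold; adjusted p = 0.0175, and 0.0517 without Foxl1 positive replicate 1). Ryk and Ror2, receptors of noncanonical ligands, were at 73.9, 140 and 56.6 CPM and at 21.7, 16.6 and 88.3 CPM against no count. They were at least 117-fold and 55.0-fold higher (adjusted p = 0.0126 and 0.0118). Fzd5 was the tested receptor that was not called (adjusted p = 0.655). It was at 233, 320 and 0.662 CPM against 85.1, 3.96 and 0 CPM. The epithelial cell adhesion gene Epcam was at 1113, 1049 and 63.5 CPM against 294, 883 and 96.3 CPM. Both genes were high in Foxl1 positive replicates 1 and 2, but the Foxl1 negative library with the most Epcam had little Fzd5. The part of epithelial RNA in the Fzd5 values was not tested.

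Of genes for release and amplification of Wnt signals 2 of 6 measured were tested, and of secreted Wnt inhibitors 2 of 10. None of these 4 was called by edgeR, beside 42.2% of all genes tested, and 0 had an unadjusted p under 0.05. DESeq2 called 1 inhibitor higher, limma on log2(FPKM + 1) 1, and limma-voom both inhibitors and 1 of the other genes. Of all genes tested, these 3 methods called 46.5%, 35.5% and 51.5% higher. Wls, the cargo receptor for Wnt secretion, was measured at 76.0, 28 and 314 CPM against 0, 0 and 142.5 CPM (edgeR adjusted p = 0.828; 0.0137 without Foxl1 negative replicate 3). Rspo3, an R-spondin that amplifies Wnt signals, was at 1.72, 30.3 and 38.7 CPM against 360.1, 0 and 0 CPM (adjusted p = 0.744; 0.0344 and higher in Foxl1 positive cells without Foxl1 negative replicate 1). Sfrp1, a secreted frizzled-related protein that binds Wnt ligands, was at 1136, 258 and 1441 CPM against 0, 0 and 19.1 CPM. Its libraries did not overlap, yet the log2 difference of 7.20 ± 3.16 (SE) did not pass (adjusted p = 0.124; 0.0131 without Foxl1 negative replicate 3). Dkk3, of the dickkopf family, overlapped between the sorts, at 232, 276 and 1051 CPM against 0, 0 and 524 CPM (adjusted p = 0.829; 0.01345 without Foxl1 negative replicate 3). For each of these 4 genes, counts in the Foxl1 negative sort came from 1 library, so the fit without that library had no Foxl1 negative count left.

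Of BMP and activin ligands, 6 of 7 tested, of 14 measured, were called higher, beside 42.2% of all genes tested. Mean levels in Foxl1 positive libraries were 38.3 FPKM for Bmp4, 33.15 for Bmp5, 14.0 for Bmp7 and 11.65 for Bmp3. Bmp4 was at 579, 239 and 349 CPM, with none counted in the other sort (at least 507-fold, edgeR adjusted p = 0.0136). Bmp7 was at 129, 86.3 and 173 CPM, with none counted in the other sort (at least 169-fold, adjusted p = 0.0142). Bmp3, a member that antagonizes other BMPs, was at 383, 182 and 57.9 CPM, with none counted in the other sort (at least 271-fold, adjusted p = 0.0160). Bmp6 and the activin subunit gene Inhba were at 49.2 ± 15.55 and 42.55 ± 21.7 CPM (SD, n = 3) against no count (adjusted p = 0.0116 for both). Bmp2 was the tested member not called, at 54.8, 97.9 and 121 CPM against 0, 0 and 70.3 CPM (adjusted p = 0.739; 0.0116 without Foxl1 negative replicate 3). Bmp8a, Gdf7 and Gdf10 were seen mainly in Foxl1 negative replicate 2, at 174, 18.9 and 53.6 CPM, and were at most 5.30 CPM in any Foxl1 positive library.

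Of BMP antagonists, 2 of 6 tested were called higher, of 11 measured, beside 42.2% of all genes tested. DESeq2 and limma-voom each called 4 of the 6, beside 46.5% and 51.5% of all genes tested. Limma on log2(FPKM + 1) called 1 of the 6, beside 35.5%. With libraries drawn down to the shallowest total, edgeR called 0 of 3 tested, beside 34.9%. Grem1, an antagonist made by mesenchyme at the crypt base, was at 15.1, 3.05 and 149 CPM, with none counted in the other sort (at least 72.6-fold, edgeR adjusted p = 0.0218), with Foxl1 positive replicate 3 far above the others. Chrdl1, of the chordin family, was at 13.5, 2.095 and 68.5 CPM, with none counted in the other sort (at least 36.5-fold, adjusted p = 0.0150). Chordin itself (Chrd) was at 1.59, 14.9 and 64.5 CPM against 0, 591 and 0 CPM. It overlapped between the sorts (adjusted p = 0.677) and was called higher in Foxl1 positive cells without Foxl1 negative replicate 2 (0.0335). Twsg1 and Nbl1, secreted BMP-binding proteins, were at 420, 405 and 1241 CPM and at 186, 302.5 and 1152 CPM, above all Foxl1 negative libraries. Neither passed (adjusted p = 0.125 and 0.248), although Twsg1 did without Foxl1 negative replicate 3 (0.01265).

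**Figure D4:**
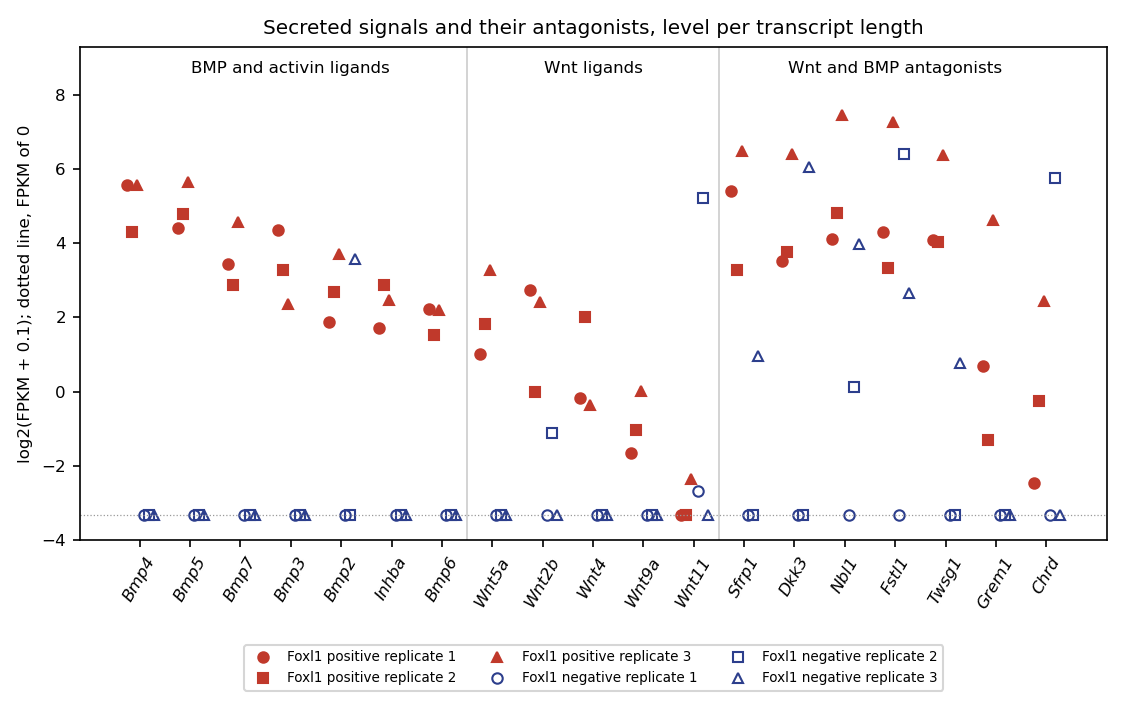
Level per transcript length, as log2(FPKM + 0.1), of BMP and activin ligands, Wnt ligands and antagonists of both in each library. Ligands called higher lie on the dotted line of 0 FPKM in all Foxl1 negative libraries, whereas Wnt11, Fstl1, Chrd and Dkk3 are high in 1 of them.

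Of 34 other growth factors measured, 23 were tested and 15 called higher, beside 42.2% of all genes tested. Among the even ones were Hgf, the ligand of the Met receptor, at 55.0, 59.6 and 55.25 CPM, and Tgfb2, of the transforming growth factor family, at 52.3, 50.1 and 60.5 CPM, both against no count (edgeR adjusted p = 0.0116 for each). Igf1, the growth factor of insulin-like receptors, was at 302, 74.1 and 917 CPM, with none counted in the other sort (at least 562-fold; adjusted p = 0.0154, and 0.0523 without Foxl1 positive replicate 3). Ereg, a ligand of epidermal growth factor receptors, was at 106, 49.9 and 316 CPM, with none counted in the other sort (at least 205-fold, adjusted p = 0.0162). Tgfb3 was at 108, 147 and 399 CPM against 1 count in Foxl1 negative replicate 3 (adjusted p = 0.0118). The chemokine Cxcl12 was at 172, 112 and 1712 CPM against 0, 0 and 187 CPM and was not called (adjusted p = 0.550; 0.0193 without Foxl1 negative replicate 3). Jag1, a Notch ligand, was at 95.4, 23.8 and 31.8 CPM against 0, 414 and 0 CPM and Vegfa, an angiogenic factor, at 97.6, 121.5 and 133 CPM against 0, 235 and 182 CPM. Neither was called (adjusted p = 0.851 and 0.974). Jag1 was called higher in Foxl1 positive cells without Foxl1 negative replicate 2 (0.0216).

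Mesenchymal transcription factors were called higher in 10 of 14 tested, of 24 measured, beside 42.2% of all genes tested. Meis2, a homeodomain cofactor of Hox proteins, was at 37.8, 55.05 and 35.4 CPM, and the zinc finger factor Snai2 at 29.1, 48.6 and 70.1 CPM, both against no count (edgeR adjusted p = 0.0116 for each). Tcf21, a factor of fibroblast precursors, was at 96.4, 31.6 and 235 CPM against 1 count in Foxl1 negative replicate 3 (adjusted p = 0.0120). Zeb2 and Tcf4 had no overlap between the sorts but were not called, at 940.1, 289 and 386 CPM against 0, 49.8 and 0 CPM and at 411, 557 and 612 CPM against 0, 128 and 175 CPM (adjusted p = 0.309 and 0.564). Zeb2 passed without Foxl1 negative replicate 2 (0.0216).

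Of 35 collagens and other matrix genes tested, edgeR called 6 higher, beside 42.2% of all genes tested. Their median log2 change of 3.24 lay beside 3.47 over all genes tested. Of the 35 genes, 5, 24 and 28 had a count in Foxl1 negative replicates 1, 2 and 3. Only 4 of the 35 were counted in all 3 of these libraries. The median transcript length of the list was 5833 bases. Col12a1, a collagen of fibril surfaces, was called with even values of 1390, 1216 and 1495 CPM, with none counted in the other sort (at least 1782-fold, edgeR adjusted p = 0.0116). Tnc, the matrix glycoprotein tenascin C, was at 1100, 757 and 3861 CPM against 1 count in Foxl1 negative replicate 3 (adjusted p = 0.0116). The basement membrane chain genes Col4a5 and Col4a6 were at 124, 166.5 and 506.5 CPM and at 23.3, 71.4 and 96.9 CPM against no count, while Col4a1 and Col4a2 overlapped between the sorts and were not called (adjusted p = 0.429 and 0.622). Col3a1, a fibrillar collagen, was at 3348, 1028 and 65840 CPM against 4219, 3586 and 2066 CPM (adjusted p = 0.299). Decorin (Dcn), a proteoglycan of fibroblasts, was at 1171, 583 and 12438 CPM against 2863, 5216 and 4146 CPM (adjusted p = 0.965). For both genes Foxl1 positive replicate 3 lay above all Foxl1 negative libraries and replicate 2 below them, while replicate 1 lay among them for Col3a1 and below them for Dcn. Without Foxl1 negative replicate 3, 14 of the 35 were called, beside 63.6% of all genes tested in that fit.

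Genes of fibroblasts that carry Cd34, the other main mesenchymal population of the lamina propria, were called in 1 of 12 tested. This lay beside 42.2% of all genes tested, and the median log2 change of the 12 was 0.59. The complement gene C3 was at 555, 37.5 and 2136 CPM against 78.7, 1122 and 731 CPM, and Cd34 at 90.3, 17.9 and 1129 CPM against 0, 448.5 and 170 CPM (edgeR adjusted p = 0.929 and 0.887). Pi16, a marker of adventitial fibroblasts, was at 0, 0.191 and 11.3 CPM against 1596, 0 and 95.5 CPM (adjusted p = 0.237). It was called lower in Foxl1 positive cells by DESeq2 (adjusted p = 0.008145). The called member was the chemokine scavenging receptor gene Ccrl1, at 6.89, 2.095 and 235 CPM against no count (adjusted p = 0.0373; 0.0649 and 0.0501 without Foxl1 negative replicate 1 or 2). Without Foxl1 negative replicate 3, 4 of 12 were called, beside 63.6% of all genes tested in that fit.

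Pericyte genes were called higher in 5 of 6 tested, beside 42.2% of all genes tested. These 5 had no count in the Foxl1 negative sort, so their calls restate that they were not detected there. Abcc9 and Kcnj8, the subunits of an ATP-sensitive potassium channel of mural cells, were at 880.2, 464 and 367 CPM and at 247, 127 and 241.5 CPM, with none counted in the other sort (at least 743.5-fold and 267-fold, edgeR adjusted p = 0.0124 and 0.0144). Rgs5, a regulator of G protein signalling, was at 182, 114.5 and 337 CPM, with none counted in the other sort (at least 275-fold, adjusted p = 0.0146). Mcam, a surface adhesion gene of the same list, was at 14.4, 26.1 and 272 CPM against 0, 582 and 0.0569 CPM and was not called (adjusted p = 0.920; 0.0269 and higher in Foxl1 positive cells without Foxl1 negative replicate 2). Smooth muscle genes were called in 4 of 11. Acta2, smooth muscle actin, was at 493, 217 and 5447 CPM against 0, 1691 and 0.0569 CPM, and Myh11, smooth muscle myosin, at 1346, 214 and 3796 CPM against 105, 2060 and 0 CPM. Neither was called (adjusted p = 0.799 and 0.847). Without Foxl1 negative replicate 2, Acta2 (0.0216) and 9 of 12 smooth muscle genes in all were called, and without Foxl1 positive replicate 1, 2 of 11. Of all genes tested, 47.7% and 42.2% were called higher in these fits.

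The 10 genes with the highest level in their lowest Foxl1 positive library, among those called without overlap, included Col12a1 and Tnc, and 6 of the 10 had no count in the Foxl1 negative sort. Lpp, a protein of focal adhesions encoded here by a transcript of 15660 bases, led with 2402, 1235 and 1217 CPM (at least 2108-fold, edgeR adjusted p = 0.0116). Thbd, thrombomodulin, which turns thrombin into an anticoagulant enzyme, was at 1176, 825 and 1377 CPM (at least 1468-fold, adjusted p = 0.0116). Ece1, which cleaves endothelin precursors to active peptides, was at 955, 705 and 811 CPM (at least 1074-fold), and the metalloprotease gene Adam19 at 1675, 1017 and 525 CPM (at least 1397-fold). Il6st, the shared receptor chain of the interleukin 6 family, was at 612, 449.9 and 1237 CPM (at least 998-fold). Mtap4, a microtubule-associated protein gene, varied least, at 586, 624 and 578 CPM against 1 count in Foxl1 negative replicate 2. Fhl1, a LIM domain gene of muscle and stroma, was at 1198, 735 and 4288 CPM against 1 count in replicate 3. Lrp1, an endocytic receptor of the lipoprotein receptor family, was at 950.3, 850.5 and 1337 CPM against 0, 2.17 and 0 CPM (log2 10.41 ± 3.08, SE; adjusted p = 0.0270), and its call was lost without any of the Foxl1 positive libraries (0.0568, 0.0540 and 0.0691 without replicates 1, 2 and 3).

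Of the 5 genes called although counted in all 3 Foxl1 negative libraries, 4 are described here. Trp53inp2, a nuclear and autophagy-associated protein gene, was at 276, 170 and 448 CPM against 0.583, 1.28 and 1.88 CPM (log2 7.86 ± 2.18, SE; edgeR adjusted p = 0.0195). Arhgef12, a guanine nucleotide exchange factor of small GTPases, was at 372.5, 529.9 and 104 CPM against 1.17, 0.128 and 2.62 CPM (7.98 ± 2.44; adjusted p = 0.0295). Dmtf1, a transcription factor that induces the tumour suppressor Arf, was at 311, 245 and 103 CPM against 2.91, 1.79 and 2.96 CPM (6.42 ± 2.03; adjusted p = 0.0341). Slc6a8, the creatine transporter, was at 313.5, 271 and 26.8 CPM against 1.17, 3.96 and 1.08 CPM (6.60 ± 2.24; adjusted p = 0.0469). Each of these 4 calls was lost without any of the Foxl1 positive libraries. Without Foxl1 positive replicate 1, adjusted p was 0.133 for Trp53inp2, 0.144 for Arhgef12, 0.226 for Dmtf1 and 0.218 for Slc6a8, and without replicate 2 it was 0.124, 0.1685, 0.221 and 0.217. Without replicate 3 it was 0.0539, 0.0509, 0.0628 and 0.0602. Leaving out Foxl1 negative replicate 1 also ended the call of Slc6a8 (0.0652). Their levels in Foxl1 negative libraries were at most 3.96 CPM, from between 1 and 52 counts.

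The 65 genes for which every Foxl1 negative library lay above every Foxl1 positive one had short transcripts, with a median of 1192 bases against 2940 over all genes tested, and none was called by edgeR. The ferritin genes Fth1 and Ftl1, which store iron, were at 743.5, 1100 and 1584 CPM against 4022, 3833 and 2037 CPM and at 171, 129 and 508 CPM against 3029, 1450 and 732 CPM. Their log2 differences were -1.53 ± 1.29 and -2.69 ± 1.54 (SE; adjusted p = 0.496 and 0.254). Gstm1, a glutathione transferase, was at 62.8, 93.3 and 168 CPM against 3453, 735 and 432 CPM (-3.83 ± 1.70; adjusted p = 0.125). DESeq2 called Gstm1 lower in Foxl1 positive cells (adjusted p = 0.00109) and Ftl1 as well (0.0143), and limma on log2(FPKM + 1) called both (adjusted p = 0.0306 and 0.0379). Apoa1, an apolipoprotein of enterocytes and liver, was at 276, 783 and 19.5 CPM against 6198, 3110 and 998 CPM (-3.26 ± 1.78; adjusted p = 0.230). H2-Ab1, a chain of MHC class II, was at 313, 309.5 and 93.6 CPM against 1574, 525.5 and 2391 CPM (adjusted p = 0.262). Also in this group by the same ranking were Tmsb4x, which binds actin monomers, Arhgdia, an inhibitor of GDP release from small GTPases, the ubiquitin gene Ubb and the mitochondrial enzyme genes Mdh2 and Acat1, with edgeR adjusted p between 0.4495 and 0.651.

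The libraries held RNA of further cell types, unevenly within each sort. Foxl1 positive replicates 1 and 2 had pan-epithelial genes at a sum of 5559 and 5600 CPM against 325 CPM in replicate 3, with all 12 genes counted in each. T cell genes summed to 876, 1006 and 41.4 CPM in the 3 libraries, with Cd8b1 at 0 in each. Foxl1 positive replicate 3 led in matrix (199578 CPM against 34592 and 19241), smooth muscle (16337 against 3774 and 1542) and endothelium (3173 against 356 and 465). In Foxl1 negative replicate 1 hepatocyte genes summed to 40752 CPM, with all 9 counted and albumin (Alb) at 34562 CPM, and erythroid genes to 18654 CPM. Replicate 2 of that sort had 10176 CPM of pan-epithelial and 7508 CPM of smooth muscle genes. Replicate 3 had 15823 CPM of B and plasma cell genes, with the immunoglobulin joining chain gene Igj at 12563 CPM. The part of these cell types in the differences between the sorts was not tested. Macrophage and dendritic cell genes were called in 6 of 8 tested, beside 42.2% of all genes tested, and summed to 694, 120 and 195 CPM against 0, 0 and 87.9 CPM. All 6 called had no count in the Foxl1 negative libraries. DESeq2 called 5 of the 8, limma-voom 6 and limma on log2(FPKM + 1) 3, beside 46.5%, 51.5% and 35.5% of all genes tested. With libraries drawn down to the shallowest total, edgeR called 1 of 3, beside 34.9% of all genes tested. Endothelial genes were called in 3 of 12, beside 42.2% of all genes tested. Without Foxl1 negative replicate 3 they were called in 9 of 14, beside 63.6% of all genes tested in that fit. Crypt base stem cell genes were called in 5 of 8, beside 42.2% of all genes tested. They summed to 2587, 1798 and 824.5 CPM against 0, 589 and 5.81 CPM. Their order among Foxl1 positive libraries was that of Paneth and goblet cell genes (20228, 3633 and 121 CPM). Of 9 Paneth and goblet cell genes tested, edgeR called 0, with 0 at an unadjusted p under 0.05, and DESeq2 and limma-voom called 1 higher each. Without Foxl1 negative replicate 2 or 3, edgeR called 3 of 10, beside 47.7% and 63.6% of all genes tested in these fits. Of 13 enterocyte genes tested, edgeR called 0, with 0 at an unadjusted p under 0.05. DESeq2 called 3 of them higher and 4 lower, limma on log2(FPKM + 1) 2 lower and limma-voom 0. Of all 11204 genes tested, DESeq2 called 5215 higher and 88 lower, and limma on log2(FPKM + 1) 18 lower. Of 12 pan-epithelial genes, edgeR called 3 higher, beside 42.2% of all genes tested.

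**Figure D5:**
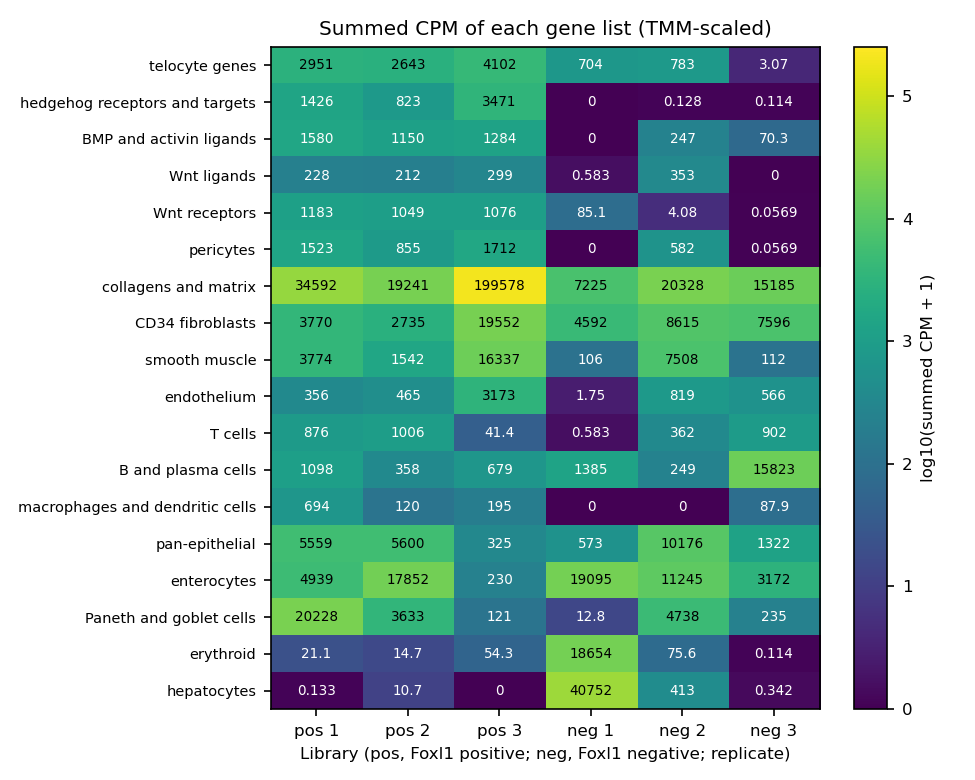
Summed level of the measured members of 18 gene lists, in CPM, in each library, coloured by log10(CPM + 1). Hedgehog, BMP and pericyte rows are high in all 3 Foxl1 positive columns, while hepatocyte, erythroid and B cell rows each stand out in 1 Foxl1 negative column. The BMP row also holds 247 and 70.3 CPM in Foxl1 negative replicates 2 and 3, and the pericyte row 582 CPM in replicate 2. After scaling, all genes tested sum to 1436438, 1288949 and 1409178 CPM in Foxl1 positive and 650188, 786856 and 749163 CPM in Foxl1 negative libraries.

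Of 18 genes induced when tissue is dissociated, 3 were called higher in Foxl1 positive cells, beside 42.2% of all genes tested. The immediate early factor Egr1 was at 983, 425 and 563 CPM against 2 counts in Foxl1 negative replicate 2 (edgeR adjusted p = 0.0123). Hspa1a, an inducible heat shock protein gene, had 0.662, 13.7 and 64.2 CPM against 116, 461.5 and 1054 CPM, without overlap and without a call (log2 -4.38 ± 2.24; adjusted p = 0.194; lower by DESeq2 at 0.00826). Of 16 broadly expressed genes tested, 1 was called, Tbp, which encodes the TATA-binding protein, at 39.2, 42.7 and 21.2 CPM against no count (adjusted p = 0.0116). Actb and B2m, actin and the light chain of MHC class I, were at 2645, 3873 and 2086 CPM against 485, 2033 and 1733 CPM and at 3592, 3425 and 3665 CPM against 1022, 1363 and 1624 CPM. Neither was called (adjusted p = 0.718 and 0.520).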

How the data were processed

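The authors deposited raw counts per transcript and FPKM values for 10 libraries, and 1 column holds 1 library. Per the submitters' processing notes CASAVA 1.8.2, edgeR and the build mm9 were used. Aligner, counter, annotation and strand use: not given in the sources used here. Without strand, overlapping and antisense genes cannot be told apart. Values of genes that have near-identical copies are uncertain. Each gene was read from its representative transcript as the authors marked it, and deposited counts of the 6 mesenchymal libraries were fitted alone with edgeR 4.0.16 in R 4.3.3 (filterByExpr, trimmed mean of M values, robust quasi-likelihood test, Benjamini-Hochberg adjustment, threshold 0.05). Transcript lengths came from the ratio of counts to FPKM. Total counts were 1311205 to 13440838, and floors cover counting error only. Alternatives used DESeq2 1.42.0, limma 3.58.1, other scalings, filters and pseudocounts, and each library left out. Genes were named by a rule: the 4 markers, the 10 called genes with the highest lowest Foxl1 positive level, called genes counted in every Foxl1 negative library, the 10 genes with the highest lowest Foxl1 negative level among those above all Foxl1 positive libraries, and the 4 highest members of each list. Some genes the rule names are not reported here. Other list members were named after their values were seen. Members and lists were chosen with earlier results of these data known.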

Additional observations from a re-analysis of the deposited data

How the results depend on the processing

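The number of genes called higher was 4723, and stayed within 1.5 times of it except in these cases. It was 3043 with libraries thinned to the shallowest, and 0 with Rosa-mTmG libraries only, which leaves 1 Foxl1 positive library assumed to vary like the others. It was 0 among the 746 genes counted in every Foxl1 negative library, and 4823 to 8207 with 1 library left out. The number called lower was 0. It was 88 with DESeq2, 68 with all 10 libraries in 1 fit, 23 and 18 with limma on log2(FPKM + 0.1) and log2(FPKM + 1), 2 with library totals alone, 2 with median-of-ratios scaling, 1 with limma-voom, 1 with no filter on low counts, and 0 to 33 with 1 library left out. With the replicate number as a block, 0 genes were called higher and 0 lower. Deviations of same-numbered libraries correlated at 0.061, 0.008 and 0.066, and those of the other pairs at -0.079 to 0.046. The labels name no animal, so whether same-numbered libraries share one is not known. Library totals alone put the median log2 change of all genes tested at 2.58 instead of 3.47. The edgeR fit of all 6 libraries gave log2 changes of -0.9 for Mcam, -2.87 for Chrd, -1.45 for Jag1 and -2.35 for Rspo3. Alternative fits gave values as far apart as -3.15 and 10.70 for Mcam and -4.47 and 10.56 for Chrd. For Jag1 they were as far apart as -2.28 and 11.49, and for Rspo3 -2.90 and 10.60. Leaving out 1 library turned these 4 genes to higher in Foxl1 positive cells. In each case the library left out held all Foxl1 negative counts of the gene, except 1 count of Mcam. The cause of these changes was not tested. Depth and sparse detection in the Foxl1 negative libraries limit any statement on genes without counts there.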
